A study of Mus musculus with 16 samples.

Results

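Retina of mice at postnatal day 30 (P30) was compared between 2 libraries labelled as conditional knockouts (CKO) of Uxt and 2 libraries labelled control. These 4 libraries were selected by age and genotype label, out of 16 libraries in the series, and the comparison covers every gene in the count files. The mice were of strain C57BL/6. The CKO came from mating Chx10-Cre mice with Uxt flox/flox mice, whose loxP sites flank exon 3 of Uxt and were placed with CRISPR/Cas9. The control group is given as control only, with no further genotype, so it is not known here whether controls carry the floxed allele or the Cre. Polyadenylated RNA was sequenced as paired reads of 150 bases, and the deposited values are read counts per gene. Nothing in the labels ties the 2 libraries of a group to different animals. The p-values therefore measure only the spread between these libraries, which may be technical.

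UXT is a small prefoldin-like chaperone protein that binds URI1 in a complex with the R2TP co-chaperone, and it has also been described as a nuclear cofactor of the NF-kB subunit p65. The Chx10-Cre driver is active in the progenitors that give rise to the neurons and Muller glia of the retina. It is therefore a tool for deletion in that lineage, while vessels, microglia and tissues around the retina descend from other cells. By P30 the mouse retina is mature, and rods, the photoreceptors of dim light, make up most of its cells. When photoreceptors degenerate, Muller glia and microglia are known to respond with induction of intermediate filaments, complement and phagocytic genes.

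Uxt itself (ENSMUSG00000001134, chromosome X, 20941722 to 20962017, minus strand, GRCm38, which is mm10) was not lower in the libraries labelled CKO. Levels are in CPM, read counts scaled to each library's total after adjustment by trimmed means (TMM). It stood at 4.93 and 4.52 CPM in the controls and 6.56 and 6.96 CPM in the libraries labelled CKO, so that both libraries labelled CKO lay above both controls. The log2 fold change was 0.52 ± 0.18 (± the SE from the model, 2 libraries in each group) with adjusted p = 0.0649, and it did not pass the threshold of 0.05. It passed at 0.59 (adjusted p = 0.0438) without the first library labelled CKO.

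The counts are per gene and include transcripts with or without exon 3, so they cannot show the deletion. The 2 libraries of each group are called control 1, control 2, CKO 1 and CKO 2 below, and values are always given in this order. Because the level of Uxt does not separate the groups in the direction of the label, each direction below is a direction between libraries labelled CKO and controls.

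The 4 libraries held between 15807152 and 22815404 counts, with 26880 to 27473 genes detected in each, and the 3 counts that an observed 0 leaves possible came to 0.137 to 0.188 CPM. The 2 libraries labelled CKO differed from each other far more than any other pair of replicates in the series. Their counts gave a chi-square of 22.6 per degree of freedom, against 3.40 for the P30 controls and 1.39 to 1.54 for the other 6 groups. Libraries of P1, P7 and P14 therefore did not enter the estimate of spread in the comparison within P30. All 4 libraries expressed the Y-linked Ddx3y (70.8 to 85.7 CPM) and were low in Xist (at most 0.802 CPM). Rods, cones, bipolar, amacrine, horizontal and ganglion cells and Muller glia each had their defining markers in the controls. Genes of lens, cornea, muscle and pigment epithelium were present as well and are described with the genes they move with. CPM is not corrected for gene length, so levels are compared between libraries and not between genes.

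In all, 19065 genes were tested by edgeR's quasi-likelihood test with Benjamini-Hochberg adjustment, and 8189 had an adjusted p under 0.05. Of the tested genes, 21.7% (4140) were higher and 21.2% (4049) lower in the libraries labelled CKO. A change of at least 2-fold was seen for 1622 of the former and 1512 of the latter. These shares are the background against which the counts of each gene group below are to be read, and the median log2 fold change of all tested genes was -0.01. Without control 1, 1685 genes were called higher and 1574 lower, and without control 2 the numbers were 1267 and 1147. A scaling on the genes of bipolar, amacrine, horizontal and ganglion cells moved the median of all genes to 0.68 and gave 10791 higher and 868 lower. The plot of all tested genes shows their spread over level and fold change.

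**Figure D1:**
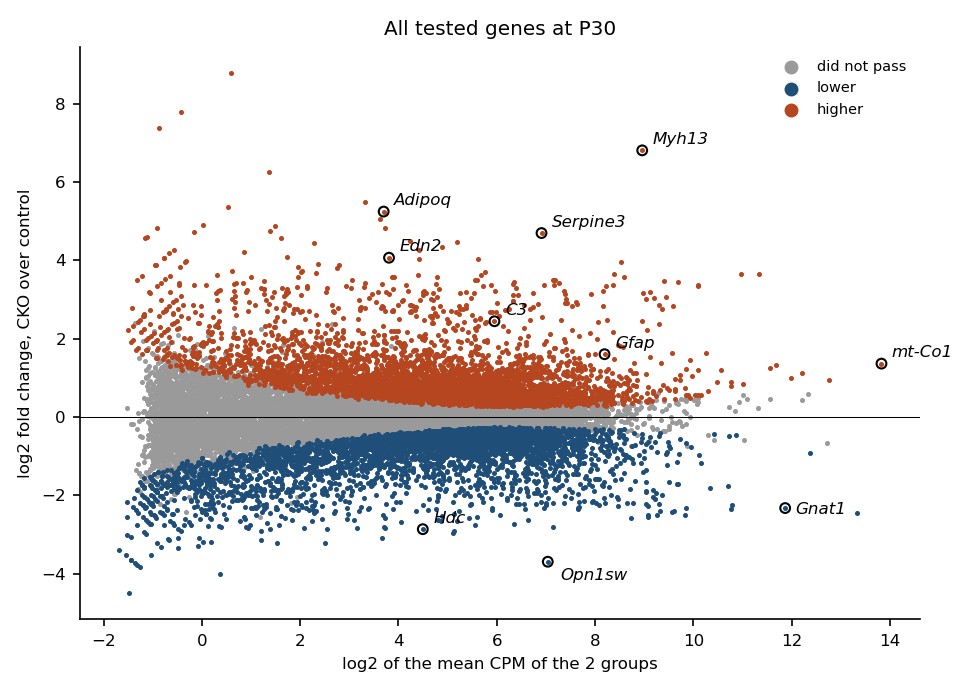
Each point is one of the 19065 tested genes at P30, with the log2 of its mean CPM over the 2 groups on the x axis and its log2 fold change, libraries labelled CKO over controls, on the y axis. Genes higher (4140, red) and lower (4049, blue) at an adjusted p under 0.05 flank the grey genes that did not pass, and 10 circled genes described in the text are named.

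All 17 rod genes on the list were tested and all 17 fell, with a median log2 fold change of -2.26. Their summed level was 38376 and 38108 CPM in the controls and 8169 and 7534 CPM in the libraries labelled CKO. Gnat1 (ENSMUSG00000034837, chromosome 9, 107674474 to 107679712), the alpha subunit of transducin, the G protein of rod phototransduction, stood at 6096 and 6362 CPM against 1221 and 1265 CPM (-2.33 ± 0.15, adjusted p = 0.000616), and the groups were far apart compared with the gap between replicates. Pde6b, a catalytic subunit of the phosphodiesterase that transducin switches on, fell by a similar size, from 1251 and 1376 CPM to 237 and 257 CPM (-2.41 ± 0.13, adjusted p = 0.000443). Cnga1, a subunit of the cyclic nucleotide-gated channel at the end of this cascade, was 4.78-fold lower (444 and 453 CPM against 102 and 86.2 CPM). Sag, the rod arrestin, which ends the light response, fell less, at 1935 and 2099 CPM against 635 and 518 CPM (-1.81 ± 0.15, adjusted p = 0.00111). The transcription factors that set rod identity fell as well. Nrl was 5.32-fold lower (-2.41 ± 0.13, adjusted p = 0.000463), Nr2e3 4.61-fold lower (-2.21 ± 0.10, adjusted p = 0.000440) and Esrrb 5.03-fold lower (-2.33 ± 0.11, adjusted p = 0.000440). All 17 rod genes were called with any 1 of the 4 libraries left out. In whole retina, fewer rods and less RNA of these genes per rod cannot be told apart, and the same holds for every cell type below.

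Genes that rods and cones share fell in 26 of 27 cases, with a median of -2.08. Prdm1, a repressor of bipolar fate in photoreceptor precursors, was the exception, at 29.3 and 27.2 CPM against 23.3 and 30.1 CPM (-0.08 ± 0.15, adjusted p = 0.692), and it was named after its values were seen. Crx (ENSMUSG00000041578, chromosome 7, 15865947 to 15879968), the homeobox factor that drives most photoreceptor genes, stood at 652 and 670.4 CPM against 149 and 141 CPM and was 4.57-fold lower (-2.19 ± 0.11, adjusted p = 0.000440). Prph2 and Rom1, which shape the rims of outer segment discs, were 5.09-fold lower (-2.35 ± 0.14, adjusted p = 0.000515) and 4.30-fold lower (-2.10 ± 0.12, adjusted p = 0.000463). Abca4, the disc transporter that clears retinoids, stood at 1021 and 1081 CPM against 276 and 257 CPM (-1.98 ± 0.12, adjusted p = 0.000515). Rbp3, the retinoid carrier secreted between photoreceptors and pigment epithelium, was 4.77-fold lower (3003 and 2857 CPM against 633 and 596 CPM). Rcvrn, a calcium sensor of phototransduction, Aipl1, a chaperone needed to assemble the rod phosphodiesterase, and Pdc, which binds transducin, had log2 fold changes of -2.04 ± 0.12, -1.99 ± 0.12 and -2.49 ± 0.14. The guanylate cyclase Gucy2f fell furthest of this group, from 129 and 156 CPM to 17.2 and 25.7 CPM (-2.72 ± 0.21, adjusted p = 0.000823). Rdh12, a retinol dehydrogenase, and Fscn2, an actin bundler of the outer segment, had nearly equal values in the 2 libraries labelled CKO (42.7 and 43.9 CPM, and 15.8 and 14.9 CPM) and log2 fold changes of -2.17 ± 0.10 and -2.25 ± 0.10.

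Promoter letters were read for these groups because their members moved together with Crx. CRX is known to bind sites whose core reads GGATTA on one strand. Within 250 bases before the start, 4 of the 10 rod promoters in the RefSeq table (10 of 17 rod genes had an entry) held these letters on either strand, as did 7 of 24 promoters of the shared photoreceptor genes, 2 of 11 cone promoters and 3 of 11 photoreceptor synapse promoters. The share over all 27025 promoters of this length was 6.37% (1721). Of the groups that rose, 0 of 17 gliosis promoters and 1 of 10 complement promoters held them, and among bipolar genes it was 2 of 15. A match is a description of the sequence and not a measured binding site. The following 120 bases before the start (RefSeq, GRCm38.p6, 5′ to 3′ on the strand of the gene) were chosen because they hold the letters, which are in capitals.
Sag promoter, chr1:87803560-87803679, plus strand: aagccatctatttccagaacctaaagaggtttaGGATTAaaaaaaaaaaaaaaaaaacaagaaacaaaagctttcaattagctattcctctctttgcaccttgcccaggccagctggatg
Crx promoter, chr7:15879956-15880075, minus strand: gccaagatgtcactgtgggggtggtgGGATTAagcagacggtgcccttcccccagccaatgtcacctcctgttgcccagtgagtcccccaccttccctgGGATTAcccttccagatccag
Aipl1 promoter, chr11:72037510-72037629, minus strand: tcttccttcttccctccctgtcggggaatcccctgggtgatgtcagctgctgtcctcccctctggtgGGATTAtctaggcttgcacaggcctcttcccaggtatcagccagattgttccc
Rbp3 promoter, chr14:33953883-33954002, plus strand: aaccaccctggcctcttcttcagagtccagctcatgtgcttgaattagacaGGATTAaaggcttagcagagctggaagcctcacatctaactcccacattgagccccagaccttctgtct

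All 4 of these genes fell, with log2 fold changes between -2.25 (Rbp3) and -1.81 (Sag). They belong to the rod and shared photoreceptor lists, where 17 of 17 and 26 of 27 members fell. Their falls therefore cannot show a link to the letters. The Crx window holds the letters at 2 places and the other 3 windows at 1 place each.

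Cone genes fell in 13 of 15 cases with a median of -2.27, and they include the largest fall by the naming rule given below. Opn1sw (ENSMUSG00000058831, chromosome 6, 29376671 to 29388468), the short-wavelength cone opsin, stood at 226 and 263 CPM in the controls and 4.01 and 33.3 CPM in the libraries labelled CKO. All values of the libraries labelled CKO lay below the controls, but the library labelled CKO 1 was 7.49-fold lower than CKO 2, with 0.5 CPM added to both. The log2 fold change was -3.70 ± 0.80, adjusted p = 0.0143. Opn1mw, the middle-wavelength opsin, showed no such gap, at 55.02 and 68.00 CPM against 7.66 and 8.06 CPM (-2.97 ± 0.14, adjusted p = 0.000440). The cone arrestin Arr3 was 6.99-fold lower (228 and 270.3 CPM against 31.6 and 39.5 CPM, adjusted p = 0.000460). Gnat2, cone transducin, stood at 91.2 and 109 CPM against 18.5 and 21.5 CPM (-2.32 ± 0.13, adjusted p = 0.000500), and the cone phosphodiesterase subunits Pde6c and Pde6h were 6.82-fold lower (adjusted p = 0.000925) and 7.58-fold lower (adjusted p = 0.000440). Cnga3, the cone channel subunit, was low in all libraries, at 7.20 and 8.73 CPM against 1.15 and 2.11 CPM (-2.27 ± 0.31, adjusted p = 0.00354). Kcne2, a potassium channel subunit found in cones, fell from 21.2 and 23.98 CPM to 0.938 and 4.26 CPM (-3.09 ± 0.52, adjusted p = 0.00650) and was again lower in CKO 1 than in CKO 2. Rxrg, a nuclear receptor of immature cones, and Gnb3, a transducin subunit shared with bipolar cells, did not pass (0.33 ± 0.23, adjusted p = 0.284, and -0.34 ± 0.15, adjusted p = 0.111). The call of Opn1sw (adjusted p = 0.0602 and 0.0736) did not hold without control 1 or control 2. Without CKO 2 the log2 fold change of Opn1sw (-5.92) moved by over 1.5 times. With either control left out 11 of the cone genes were called lower, and 1 of the 15 was called higher without CKO 1.

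**Figure D2:**
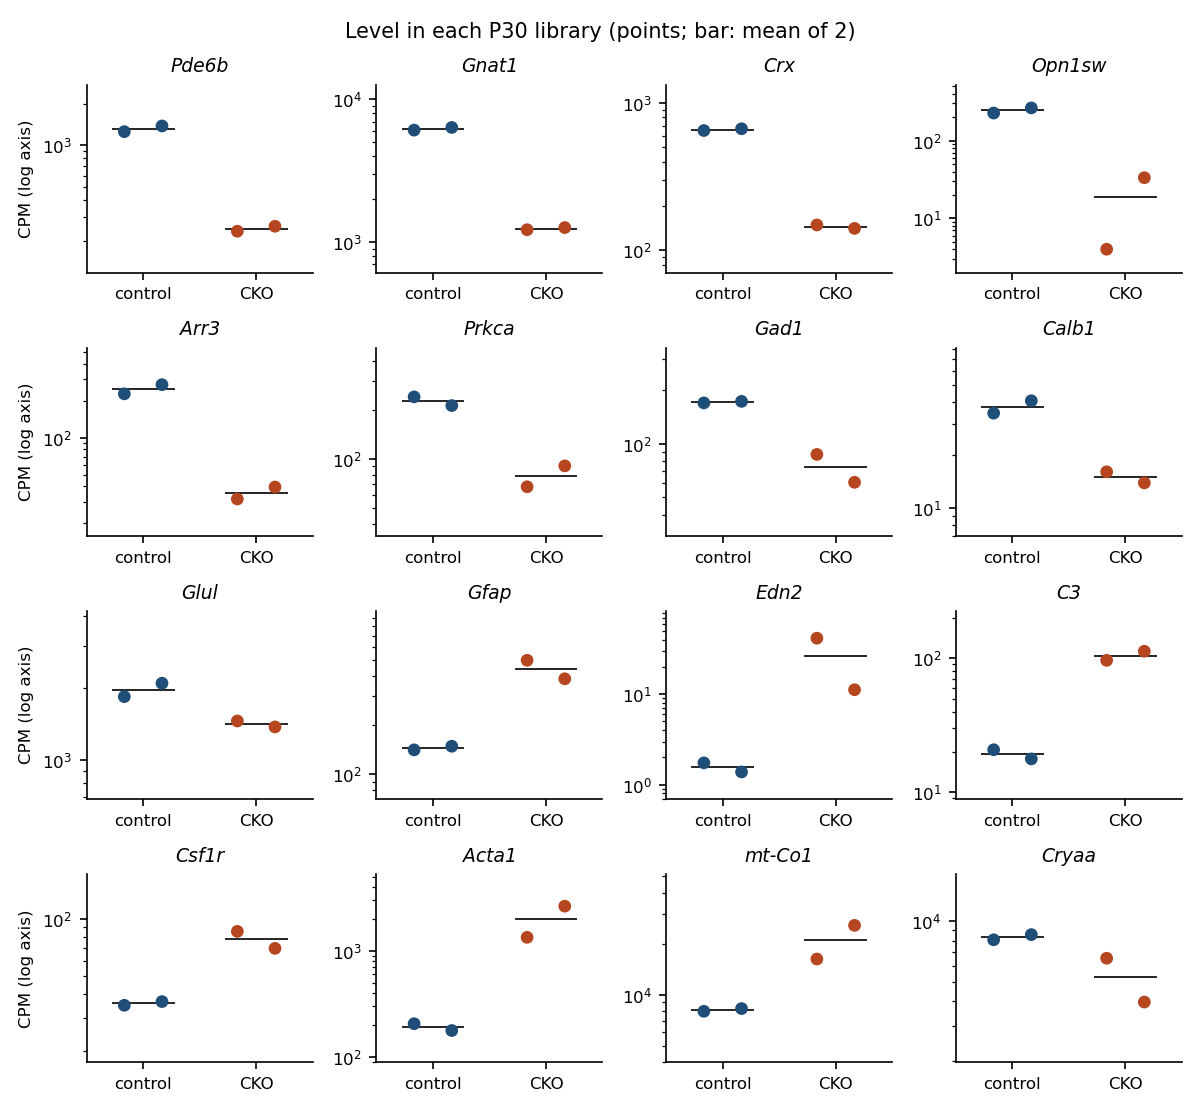
CPM of 16 genes in each P30 library on log axes, with controls in blue, libraries labelled CKO in red and a bar at the mean of the 2. The groups are separate for every gene shown, Pde6b, Gnat1 and Crx have close replicates, and Opn1sw (4.01 and 33.3 CPM) and Edn2 (41.7 and 11.2 CPM) differ between the 2 libraries labelled CKO.

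Genes of the photoreceptor ribbon synapse all fell, 15 of 15, with a median of -1.68. Cacna1f, the calcium channel that opens transmitter release there, stood at 429 and 435 CPM against 137 and 120.4 CPM (-1.74 ± 0.11, adjusted p = 0.000589). Cabp4, which tunes this channel, was 4.66-fold lower (-2.22 ± 0.13, adjusted p = 0.000482), and Cplx4, a complexin of ribbon synapses, was 3.58-fold lower (-1.84 ± 0.12, adjusted p = 0.000589). Elfn1, an adhesion protein of rod terminals that recruits the bipolar glutamate receptor, stood at 81.2 and 79.05 CPM against 31.5 and 18.7 CPM (-1.68 ± 0.23, adjusted p = 0.00353), lower in CKO 2 than in CKO 1. Lrit1, a synaptic leucine-rich repeat protein, changed by -1.91 ± 0.10. Genes of the connecting cilium and of transport along it fell in 17 of 20 cases, with a smaller median of -1.08. The scaling on inner neuron genes left 9 called lower and made 2 higher, with a median of -0.40. Rpgrip1, an anchor of the connecting cilium, fell furthest, from 896 and 948 CPM to 189 and 134 CPM (-2.51 ± 0.19, adjusted p = 0.000797). Its partner Rpgr fell less, at 26.6 and 28.9 CPM against 13.9 and 12.7 CPM (-1.06 ± 0.12, adjusted p = 0.00215). Cep290, of the transition zone, changed by -1.78 ± 0.12, the kinase Mak by -2.21 ± 0.11 and Lca5 by -1.63 ± 0.09. Rp2 and Kif17 did not pass, and the lower of their log2 fold changes was -0.06. Many cilium genes are used by all ciliated cells, and with either control left out 13 of the 20 were called.

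**Figure D3:**
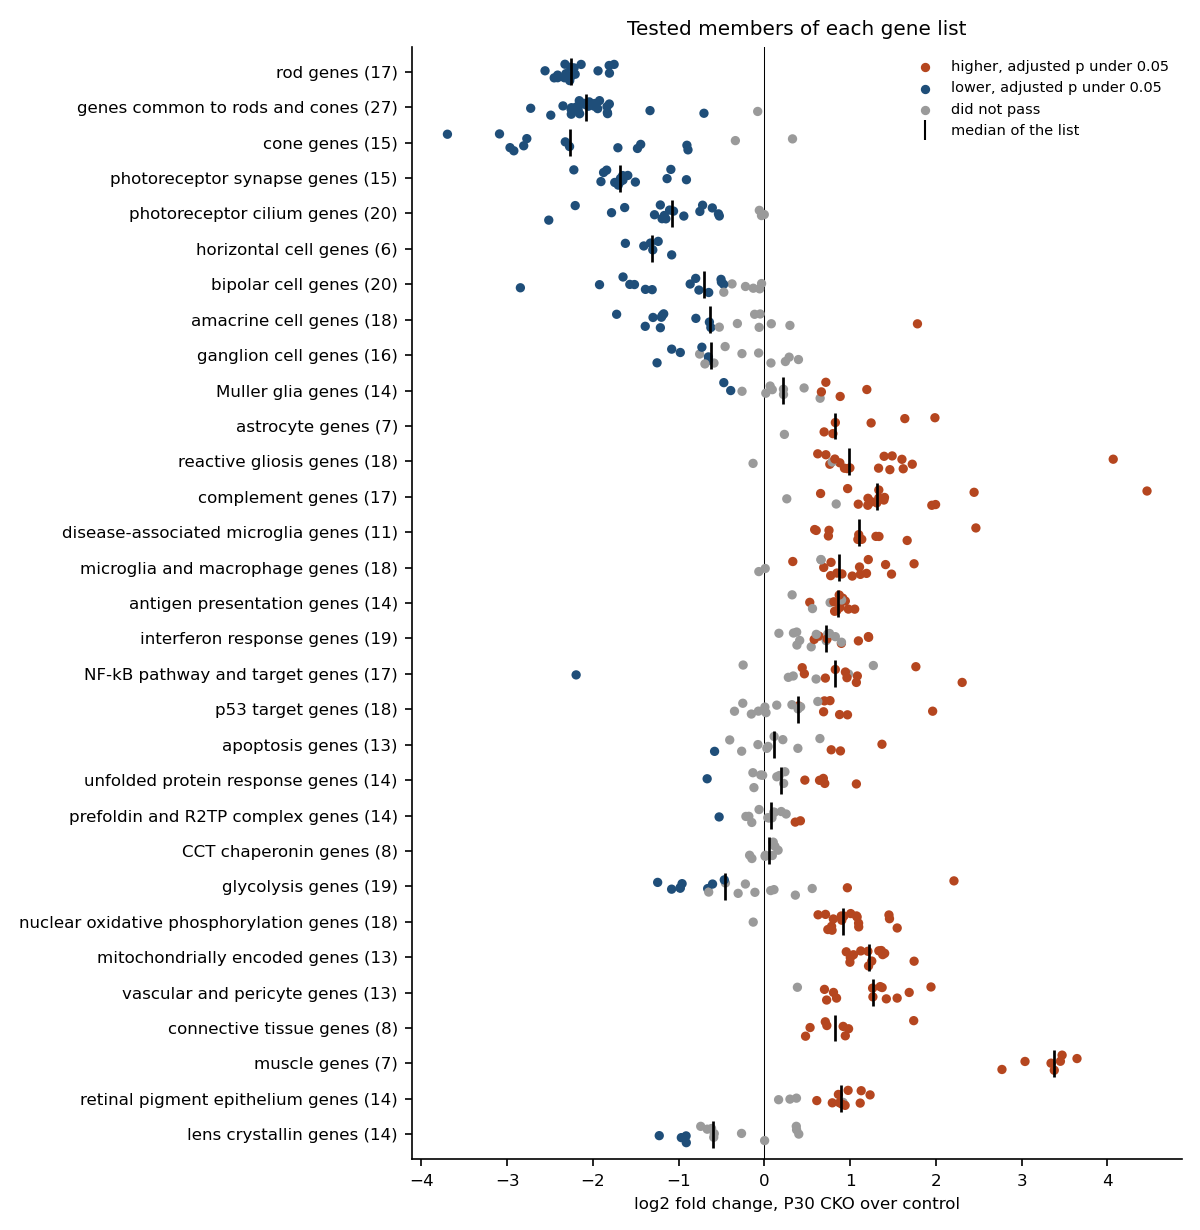
Log2 fold change at P30, libraries labelled CKO over controls, of every tested member of 31 gene lists, with the number of members in brackets, a black bar at the list median, and colours for members that were higher, lower or did not pass at an adjusted p under 0.05. Medians of photoreceptor lists lie left of 0 and the median of muscle genes lies furthest to the right; the medians of amacrine (0.04), ganglion (0.04), glycolysis (0.23) and lens genes (0.05) move to the right of 0 when libraries are scaled on inner retinal neuron genes, and that of Muller glia moves to -0.16 without the library labelled CKO 1.

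Bipolar cell genes, which mark the interneurons that receive photoreceptor input, fell in 14 of 20 cases with a median of -0.71, and the falls were unequal. Sebox, a homeobox gene, and Lrit3, a postsynaptic adhesion protein, fell furthest, Sebox from 24.6 and 22.04 CPM to 1.67 and 4.72 CPM (-2.84 ± 0.40, adjusted p = 0.00379) and Lrit3 to 18.5 and 12.96 CPM (-1.92 ± 0.18, adjusted p = 0.00140). Prkca, the protein kinase that marks rod bipolar cells, stood at 240.1 and 212 CPM against 67.6 and 90.7 CPM (-1.51 ± 0.16, adjusted p = 0.00172). Bhlhe23, a factor of rod bipolar cells, changed by -1.57 ± 0.14, adjusted p = 0.00127. Grm6, through which ON bipolar cells sense glutamate, was 1.82-fold lower (130.4 and 141 CPM against 70.95 and 77.96 CPM, adjusted p = 0.00202). Trpm1, the channel that this receptor controls, did not pass although both libraries labelled CKO lay below the controls, at 312 and 353 CPM against 304 and 303 CPM (-0.13 ± 0.11, adjusted p = 0.362). Cabp5 and the OFF bipolar receptor Grik1 had changes of -0.51 ± 0.11, adjusted p = 0.0127, and -0.48 ± 0.13, adjusted p = 0.0288. Vsx1, of OFF cone bipolar cells, had overlapping groups, at 20.7 and 21.2 CPM against 23.7 and 16.7 CPM. Left without control 1 or control 2, the data gave no call for Cabp5 (adjusted p = 0.0650 and 0.148) and Grik1 (0.123 and 0.160). The value of Grik1 (-0.31) moved by over 1.5 times without CKO 2. Under the scaling on inner neuron genes, which includes this list, its median was -0.02 and the directions of Vsx1 (0.61), Cabp5 (0.19), Trpm1 (0.56) and Grik1 (0.20) turned.

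Horizontal cells, which feed back on photoreceptors, had 6 genes on the list and all 6 fell, with a median of -1.32. With the scaling on inner neuron genes, which includes this list, 1 of the 6 was called lower. The median was then -0.62, against 0.68 for all genes. Calb1, a calcium buffer that amacrine cells also express, stood at 34.7 and 40.7 CPM against 16.1 and 13.9 CPM (-1.33 ± 0.14, adjusted p = 0.00167). Onecut1, Onecut3 and Lhx1, factors that specify the cells, were scarce, at 1.92 and 2.01 CPM against 0.938 and 0.550 CPM, 3.31 and 4.08 CPM against 1.56 and 1.56 CPM, and 5.05 and 5.21 CPM against 3.28 and 1.60 CPM. Their changes were -1.41 ± 0.36, adjusted p = 0.0243, -1.24 ± 0.26, adjusted p = 0.0122, and -1.08 ± 0.35, adjusted p = 0.0489. Without control 1, control 2 or CKO 2, Onecut1 (adjusted p = 0.107, 0.133 and 0.0600) and Lhx1 (0.149, 0.181 and 0.0638) were no longer called. Onecut3 (adjusted p = 0.106) lost its call without control 2. Leaving out CKO 1 moved the log2 fold change of Lhx1 (-1.64) by over 1.5 times. Of the 6 genes, 2 were called lower without control 1, 1 without control 2 and 3 without CKO 2.

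Amacrine cell genes fell in 10 of 18 cases and rose in 1, with a median of -0.63. Under the scaling on inner neuron genes, which includes this list, it turned to 0.04, where the median of all genes was 0.68. Markers of single amacrine types went in different directions. Chat, the acetylcholine-making enzyme of starburst cells, stood at 9.87 and 11.4 CPM against 3.65 and 2.79 CPM (-1.72 ± 0.21, adjusted p = 0.00251), and Calb2 at 144 and 145 CPM against 62.6 and 47.6 CPM (-1.39 ± 0.14, adjusted p = 0.00163). Gad1, which makes GABA, was 2.32-fold lower (169.5 and 173 CPM against 87.1 and 60.7 CPM, adjusted p = 0.00394). Th, of dopaminergic cells, was listed at nearly the same level in all libraries (2.84 and 2.95 CPM against 2.71 and 2.89 CPM). Nos1, the neuronal nitric oxide synthase that skeletal muscle also makes, rose from 21.5 and 23.2 CPM to 59.8 and 94.3 CPM (1.78 ± 0.22, adjusted p = 0.00260). The summed level of 7 muscle genes rose with it, from 1297 and 1163 to 8967 and 16301 CPM, and their part in the rise of Nos1 was not tested. The factor Tfap2b fell as well (-0.64 ± 0.11, adjusted p = 0.00645), and its direction turned to 0.04 under the inner neuron scaling. The GABA and glycine transporter Slc32a1 (-0.53 ± 0.18, adjusted p = 0.0598) and the glycine transporter Slc6a9 (-0.11 ± 0.24, adjusted p = 0.718) did not pass. When control 1 or control 2 was left out, the call of Tfap2b (adjusted p = 0.0578 and 0.0734) was lost. Of the genes not called with all 4 libraries, Slc32a1 without CKO 1 (adjusted p = 0.000146) and without CKO 2 (adjusted p = 0.0325) and Slc6a9 without CKO 1 (adjusted p = 0.000581) and without CKO 2 (0.22, adjusted p = 0.0373) passed. Without either control, 5 (control 1) and 4 (control 2) amacrine genes were called lower, and 3 were called higher without the library labelled CKO 2.

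Ganglion cell genes, of the neurons that form the optic nerve, fell in 6 of 16 cases, with a median of -0.62. It was 0.04 under the inner neuron scaling, which includes this list and moved the median of all genes to 0.68. Slc17a6, the glutamate transporter of their vesicles, stood at 41.4 and 40.6 CPM against 23.8 and 15.1 CPM (-1.08 ± 0.21, adjusted p = 0.0102). The neurofilament Nefl was 1.66-fold lower (159 and 169 CPM against 120.4 and 77.6 CPM, adjusted p = 0.0314) and the factor Pou4f1 1.97-fold lower (21.4 and 22.98 CPM against 12.4 and 10.1 CPM, adjusted p = 0.00475). Rbpms, a pan-ganglion cell marker, went the other way without passing, at 31.3 and 29.1 CPM against 36.8 and 36.97 CPM (0.29 ± 0.10, adjusted p = 0.0577). Sncg (-0.07 ± 0.11, adjusted p = 0.645) and the melanopsin gene Opn4 (0.40 ± 0.23, adjusted p = 0.209) did not pass either. Not called without control 1 or control 2 were Slc17a6 (adjusted p = 0.0516 and 0.0577) and Nefl (0.0995 and 0.147). The call of Pou4f1 (adjusted p = 0.0528) did not hold without control 2. Calls appeared for Rbpms without CKO 1 (adjusted p = 0.0283) and without CKO 2 (adjusted p = 0.0484). Without CKO 2 the log2 fold change of Nefl (-0.44) moved by over 1.5 times. The count changed with single libraries, since 1 gene was called lower without control 1, 0 without control 2 and 11 without CKO 1.

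Muller glia genes, which mark the radial glia of the retina, moved in both directions, with 4 of 14 higher, 2 lower and a median of 0.22 that was -0.16 without the library labelled CKO 1. Glul, the glutamine synthetase of these cells, stood at 1838 and 2091 CPM against 1456 and 1375 CPM (-0.47 ± 0.14, adjusted p = 0.0366), and its direction turned to 0.21 under the inner neuron scaling. Sox9, a glial transcription factor, rose from 41.5 and 38.7 CPM to 67.04 and 60.1 CPM (0.66 ± 0.10, adjusted p = 0.00465), and clusterin, Clu, to 2442 and 1744 CPM (1.19 ± 0.19, adjusted p = 0.00526). Abca8a fell to 134 and 121 CPM (-0.39 ± 0.10, adjusted p = 0.0215; 0.29 under the inner neuron scaling). The retinoid carrier Rlbp1, at 362 and 383 CPM against 539 and 329.8 CPM, and the glutamate transporter Slc1a3, at 121 and 116 CPM against 174 and 103 CPM, were high in CKO 1 only, and their groups overlapped. The water channel Aqp4 did not pass (-0.26 ± 0.11, adjusted p = 0.112). With control 1 or control 2 left out there was no call for Glul (adjusted p = 0.203 and 0.390), Clu (0.0637 and 0.0764) and Abca8a (0.144 and 0.211). Without control 2, Sox9 (adjusted p = 0.0596) was no longer called. Rlbp1 without CKO 2 (adjusted p = 0.000221), Slc1a3 without CKO 2 (adjusted p = 0.000120) and Aqp4 without CKO 1 (adjusted p = 0.00737) passed, unlike with all 4 libraries. Of the list, 1 gene was called higher without control 1, 0 without control 2 and 9 without CKO 2, while lower calls numbered 0 without either control and 4 without the library labelled CKO 1.

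Genes of reactive gliosis rose in 16 of 18 cases with a median of 0.98. Gfap (ENSMUSG00000020932, chromosome 11, 102887336 to 102900912), an intermediate filament that stressed Muller glia induce, stood at 141 and 149 CPM in the controls and 497 and 383 CPM in the libraries labelled CKO and was 3.04-fold higher (1.60 ± 0.15, adjusted p = 0.00127). The filaments Nes and Vim were 3.07-fold higher (1.62 ± 0.12, adjusted p = 0.000812) and 1.70-fold higher (0.76 ± 0.12, adjusted p = 0.00498). Serpina3n, a secreted protease inhibitor of reactive glia, rose from 57.5 and 68.7 CPM to 178 and 177 CPM (1.49 ± 0.11, adjusted p = 0.000823). The secreted factors Edn2, Lif and Fgf2 rose too. Edn2, an endothelin known from injured photoreceptors, stood at 1.74 and 1.38 CPM against 41.7 and 11.2 CPM (4.07 ± 0.71, adjusted p = 0.00727), with CKO 1 well above CKO 2. Lif, the cytokine that protects photoreceptors, was scarce, at 2.73 and 1.76 CPM against 3.75 and 5.04 CPM (0.97 ± 0.30, adjusted p = 0.0451), and the growth factor Fgf2 stood at 21.2 and 20.7 CPM against 48.5 and 28.6 CPM (0.88 ± 0.25, adjusted p = 0.0316). Stat3, which carries the Lif signal, was 1.77-fold higher (0.82 ± 0.09, adjusted p = 0.00204), and the iron-binding Lcn2 2.00-fold higher (1.00 ± 0.22, adjusted p = 0.0158). Cd44 had overlapping groups, at 121 and 116 CPM against 86.1 and 130.5 CPM, and its log2 fold change of -0.13 turned to 0.59 under the inner neuron scaling. Vim (adjusted p = 0.0810 and 0.0795), Fgf2 (0.108 and 0.133) and Lcn2 (0.0745 and 0.122) lost their calls without control 1 or control 2. When control 2 was left out, the call of Edn2 (adjusted p = 0.0501) was lost. Not called without control 1, control 2 or CKO 2 was Lif (adjusted p = 0.0726, 0.245 and 0.0951). Of the genes not called with all 4 libraries, Cd44 without CKO 2 (adjusted p = 0.000732) passed. The value of Fgf2 (0.48) moved by over 1.5 times without CKO 1. Of the 18 genes, 9 were called without control 1 and 8 without control 2. Astrocyte genes rose in 6 of 7 cases, among them Pdgfra (1.24 ± 0.09), S100b (0.80 ± 0.11), Aldh1l1 (0.70 ± 0.19) and the optic nerve factor Pax2 (0.813 and 0.753 CPM against 3.91 and 2.38 CPM, 1.99 ± 0.37), and 3 were called without control 1 and 2 without control 2. The call of Aldh1l1 (adjusted p = 0.169) did not hold without control 2. Left without control 1 or control 2, the data gave no call for Pax2 (adjusted p = 0.0518 and 0.0660).

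Of the genes of microglia and macrophages, 14 of 18 rose, with a median of 0.87. Csf1r, the receptor on which microglia depend, stood at 35.00 and 36.6 CPM against 85.8 and 69.8 CPM (1.12 ± 0.12, adjusted p = 0.00190), and Cd68, a lysosomal protein of phagocytes, at 10.9 and 9.73 CPM against 29.5 and 25.6 CPM (1.41 ± 0.14, adjusted p = 0.00153). Mrc1, a marker of perivascular macrophages, rose furthest, to 26.6 and 26.2 CPM (1.74 ± 0.12, adjusted p = 0.000744), and Laptm5 changed by 1.19 ± 0.12. The lipid receptor Trem2 (1.02 ± 0.16, adjusted p = 0.00533), Cx3cr1 (0.78 ± 0.16, adjusted p = 0.0118) and Tmem119 (0.84 ± 0.18, adjusted p = 0.0134) rose less. The homeostatic receptor P2ry12, at 3.42 and 2.57 CPM against 3.39 and 2.38 CPM, had overlapping groups, and Aif1 did not pass (0.66 ± 0.30, adjusted p = 0.120). Without control 1, Trem2 (adjusted p = 0.0540) was no longer called. Cx3cr1 (adjusted p = 0.0819 and 0.106) and Tmem119 (0.0745 and 0.108) lost their calls without control 1 or control 2. Calls appeared for Aif1 without CKO 2 (adjusted p = 0.0156). Of the list, 8 were called without control 1 and 8 without control 2. Genes of disease-associated microglia rose in all 11 tested cases with a median of 1.10. The other members, Cst7, Ccl3 and Ccl4, had at most 17 counts in a library and were not tested. Lpl, a lipase that fat and muscle also make, was 5.52-fold higher (50.7 and 46.8 CPM against 213 and 326 CPM, adjusted p = 0.00111). Gpnmb, which pigment cells also express, was 2.13-fold higher (adjusted p = 0.00183), the phagocytic receptor Axl 2.46-fold higher (adjusted p = 0.000786), osteopontin, Spp1, 2.14-fold higher (adjusted p = 0.00321), Lgals3 1.50-fold higher (adjusted p = 0.00750) and Itgax 1.68-fold higher (adjusted p = 0.0307). When control 1 or control 2 was left out, the calls of Itgax (adjusted p = 0.107 and 0.210) and Lgals3 (0.0566 and 0.122) were lost. Of these 11, 7 were called without control 1 and 7 without control 2.

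Complement genes rose in 15 of 17 cases with a median of 1.31, and this count lay between 13 and 16 with any 1 library left out. C3 (ENSMUSG00000024164, chromosome 17, 57203970 to 57228136), the component on which all complement pathways converge, stood at 20.7 and 17.7 CPM in the controls and 96.5 and 113 CPM in the libraries labelled CKO and was 5.44-fold higher (2.44 ± 0.13, adjusted p = 0.000443). C4b was 3.99-fold higher (111 and 99.3 CPM against 461 and 379 CPM, adjusted p = 0.000660), and C1qa, which starts the classical pathway and is made by microglia, was 2.31-fold higher (30.4 and 28.6 CPM against 68.6 and 67.7 CPM, adjusted p = 0.000812). The regulators Serping1 and Cfi changed by 1.31 ± 0.10 and 1.95 ± 0.30. Cfd, a complement protease that is best known as a fat cell product, rose furthest, from 4.35 and 1.88 CPM to 74.8 and 64.3 CPM (4.46 ± 0.31, adjusted p = 0.000684). The fat cell genes Adipoq, Cidec and Plin1 moved with it and are given with the largest rises, and their part in the rise of Cfd was not tested.

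Interferon response genes were called higher in 7 of 19 cases with a median of 0.72, and several of the others were highest in the library labelled CKO 1. Isg15 stood at 33.7 and 26.9 CPM against 71.1 and 29.04 CPM, Irf7 at 51.4 and 38.9 CPM against 75.1 and 45.3 CPM and Ifit3 at 44.6 and 43.4 CPM against 109 and 54.8 CPM, each with CKO 1 above the rest. None of these 3 passed (adjusted p = 0.185, 0.233 and 0.0556). The restriction factors Ifitm3 and Bst2 passed, at 2.32-fold higher (adjusted p = 0.00150) and 2.32-fold higher (adjusted p = 0.00348). Of the 19 genes, 2 were called without control 2 and 18 without CKO 2. Isg15 without CKO 2 (adjusted p = 1.69e-05), Irf7 without CKO 2 (adjusted p = 0.0165) and Ifit3 without CKO 1 (adjusted p = 0.00896) and without CKO 2 (adjusted p = 1.38e-07) passed, unlike with all 4 libraries. Antigen presentation genes rose in 10 of 14 cases, but the controls differed from each other as well. Cd74, the class II invariant chain, stood at 80.6 and 41.6 CPM against 136 and 118 CPM (1.05 ± 0.29, adjusted p = 0.0303), B2m at 264 and 186 CPM against 490.2 and 338 CPM (0.88 ± 0.23, adjusted p = 0.0272) and H2-K1 at 274 and 183 CPM against 542 and 318 CPM (0.91 ± 0.29, adjusted p = 0.0489). H2 genes are near copies of each other, so their reads may be divided among them. H2-D1 changed by 0.87 ± 0.21, adjusted p = 0.0210, Tap1 by 0.94 ± 0.28, adjusted p = 0.0365, Tapbp by 0.53 ± 0.12, adjusted p = 0.0183 and H2-Aa by 0.81 ± 0.22, adjusted p = 0.0284. The count was also 10 of 14 without control 1, but 0 of the 14 were called without control 2, 2 without CKO 1 and 3 without CKO 2. Without CKO 1 H2-K1 stood at 0.51, and without control 2 Cd74 stood at 0.67 and H2-Aa at 0.52. Not called without control 2, CKO 1 or CKO 2 were Cd74 (adjusted p = 0.0665, 0.397 and 0.404), B2m (0.167, 0.209 and 0.106), H2-D1 (0.138, 0.220 and 0.174), Tap1 (0.145, 0.295 and 0.200) and H2-Aa (0.0892, 0.213 and 0.257). The call of H2-K1 (adjusted p = 0.0614, 0.238, 0.385 and 0.171) did not hold without control 1, control 2, CKO 1 or CKO 2. With control 2 left out there was no call for Tapbp (adjusted p = 0.171). Leaving out control 1 moved the log2 fold changes of Cd74 (1.62) and H2-Aa (1.22) by over 1.5 times. T and B cell genes were scarce, with Cd3e at 0.697 and 0.314 CPM against 0.417 and 0.595 CPM and Cd8a at 1.68 and 0.816 CPM against 1.04 and 1.10 CPM. Of 8 members 3 were too low to test. Of the 5 tested, 1 was called higher (20% against 21.7% of all genes), namely Cd4 (adjusted p = 0.0155). The log2 fold change of Cd4 was 1.69 without CKO 1 and 0.99 without CKO 2.

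Genes of the NF-kB pathway were examined because UXT has been described as a cofactor of p65. Of 17 members 10 rose and 1 fell, with a median of 0.83. The subunit genes Rela and Nfkb1 changed by 0.44 ± 0.09, adjusted p = 0.0138, and 0.47 ± 0.12, adjusted p = 0.0226. The adhesion molecules Icam1 and Vcam1 were 3.40-fold higher (7.31 and 6.59 CPM against 18.3 and 29.00 CPM, adjusted p = 0.00373) and 2.12-fold higher (adjusted p = 0.00281), and the chemokine Ccl2 rose from 0.697 and 1.19 CPM to 4.38 and 4.95 CPM (2.31 ± 0.32, adjusted p = 0.00347). The receptor Tnfrsf1a was 1.95-fold higher (adjusted p = 0.00272). Tnfaip3, the A20 enzyme that restrains the pathway, fell steeply, with 263 and 282 CPM in the controls and 51.6 and 67.4 CPM in the libraries labelled CKO (-2.20 ± 0.15, adjusted p = 0.000655). The inhibitor Nfkbia did not pass (0.28 ± 0.15, adjusted p = 0.182), and Tnf had overlapping groups, at 8.71 and 6.47 CPM against 3.07 and 9.62 CPM (-0.25 ± 0.50, adjusted p = 0.708). Without control 1 or control 2, Rela (adjusted p = 0.113 and 0.127) and Nfkb1 (0.108 and 0.171) were no longer called. Of the genes not called with all 4 libraries, Nfkbia without CKO 1 (adjusted p = 0.00147) and Tnf without CKO 2 (adjusted p = 0.00181) passed. Of the list, 5 were called higher without control 1 and 4 without control 2.

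Targets of p53 rose in 7 of 18 cases (38.9% against 21.7% of all genes), with a median of 0.40. Phlda3 and Eda2r rose to 71.00 and 73.7 CPM (0.97 ± 0.09, adjusted p = 0.00119) and to 4.01 and 6.60 CPM (1.96 ± 0.36, adjusted p = 0.00828), and the cell cycle inhibitor Cdkn1a (0.69 ± 0.19, adjusted p = 0.0284) and Ccng1 (0.76 ± 0.22, adjusted p = 0.0339) rose less. Mdm2, which degrades p53, and Bax, which opens mitochondria in apoptosis, had overlapping groups (65.2 and 69.3 CPM against 62.04 and 66.01 CPM, and 31.9 and 31.6 CPM against 32.9 and 30.97 CPM). Eda2r (adjusted p = 0.0593) lost its call without control 1. When control 1 or control 2 was left out, the calls of Cdkn1a (adjusted p = 0.0810 and 0.169) and Ccng1 (0.156 and 0.143) were lost. Without CKO 2 the log2 fold changes of Cdkn1a (0.40) and Ccng1 (0.38) moved by over 1.5 times. Of the list, 1 was called without control 1 and 2 without control 2. Apoptosis genes were called higher in 3 (23.1%) and lower in 1 (7.69%) of 13 cases, against 21.7% and 21.2% of all genes. These counts were 2 and 0 without control 1, 1 and 0 without control 2, 5 and 1 without CKO 1, and 6 and 3 in the fit of all 16 libraries. Casp9, an initiator caspase (0.03 ± 0.11) and Apaf1 (0.11 ± 0.13) did not pass. Casp8 (0.78 ± 0.14, adjusted p = 0.00821) and cytochrome c, Cycs (1.37 ± 0.20, adjusted p = 0.00405), rose, and Fas did not pass (0.65 ± 0.23, adjusted p = 0.0655). Of genes for lytic cell death 2 of 12 rose (16.7% against 21.7% of all genes). They were the pore formers Gsdmd (1.10 ± 0.17, adjusted p = 0.00498) and Mlkl (1.06 ± 0.28, adjusted p = 0.0276). Ripk3, Casp1, Pycard, Casp4 and Il1b did not pass (adjusted p = 0.0760, 0.123, 0.0544, 0.191 and 0.773). In this list 0 of 12 were called higher without control 2, 5 without CKO 1 and 6 in the fit of all 16 libraries. Not called without control 2 were Casp8 (adjusted p = 0.0887) and Gsdmd (0.0562). The call of Mlkl (adjusted p = 0.0695 and 0.181) did not hold without control 1 or control 2. Calls appeared for Fas without CKO 1 (adjusted p = 0.00733), Ripk3 without CKO 1 (adjusted p = 0.00932), Casp1 without control 1 (adjusted p = 0.0246) and Pycard without CKO 1 (adjusted p = 0.0132).

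Of 14 prefoldin and R2TP complex genes 2 rose and 1 fell, with a median of 0.07. These are shares of 14.3% and 7.14%, against 21.7% and 21.2% of all genes. None was called higher without control 1 or without control 2, 4 were called higher and 2 lower without CKO 1, and 4 higher and 3 lower in the fit of all 16 libraries. With the scaling on inner neuron genes 13 were called higher. Uri1, which binds UXT directly, stood at 56.4 and 58.2 CPM against 54.7 and 46.4 CPM (-0.18 ± 0.11, adjusted p = 0.218). Pdrg1 (0.36 ± 0.11, adjusted p = 0.0400) and Pfdn1 (0.42 ± 0.10, adjusted p = 0.0188), of the prefoldin-like and the canonical complex, rose, and Vbp1 (-0.53 ± 0.10, adjusted p = 0.00875), a canonical prefoldin subunit, fell. Pfdn2, Pfdn5, Pih1d1 and Rpap3 did not pass, with log2 fold changes between -0.22 and 0.25. Left without control 1 or control 2, the data gave no call for Pdrg1 (adjusted p = 0.245 and 0.156) and Pfdn1 (0.131 and 0.145). Without control 2, Vbp1 (adjusted p = 0.119) was no longer called. Uri1 without CKO 1 (adjusted p = 0.0242) and Pih1d1 without CKO 1 (adjusted p = 0.0273) passed, unlike with all 4 libraries. None of the 8 genes of the CCT chaperonin, to which prefoldin hands its clients, was called by edgeR or by DESeq2 on the 4 P30 libraries (0 had an unadjusted p under 0.05), and their log2 fold changes lay between -0.17 and 0.16. Without the library labelled CKO 1, 2 of these 8 were called higher, and 1 was called lower without CKO 2. The fit of all 16 libraries called 1 higher and 1 lower, and the scaling on inner neuron genes all 8 higher. Among heat shock genes 4 of 13 rose and 1 fell (30.8% and 7.69%, against 21.7% and 21.2% of all genes). The count called higher was 1 without control 1 or without control 2 and 7 without CKO 1. Bag3, a co-chaperone abundant in muscle, rose from 33.03 and 35.3 CPM to 74.5 and 121 CPM (1.52 ± 0.23, adjusted p = 0.00461), and Hsp90aa1 fell from 1034 and 1173 CPM to 580.3 and 560.2 CPM (-0.95 ± 0.12, adjusted p = 0.00302). Hspa1a (-0.03 ± 0.09) and Hspa8 (0.16 ± 0.18) had overlapping groups. Hsp90aa1 (adjusted p = 0.0643) lost its call without control 2. Unfolded protein response genes rose in 5 and fell in 1 of 14 cases (35.7% and 7.14%, against 21.7% and 21.2% of all genes). The central factors Hspa5, Ddit3, Atf4 and Xbp1 did not pass (log2 fold changes between -0.12 and 0.22). Of the genes not called with all 4 libraries, Hspa5 without CKO 1 (adjusted p = 0.00808), Atf4 without CKO 2 (adjusted p = 0.0468) and Xbp1 without CKO 1 (adjusted p = 0.0279) passed. Of this list, 1 was called higher without control 1, 0 without control 2 and 9 without CKO 1.

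Genes for mitochondrial respiration rose while several glycolytic genes fell. All 13 mitochondrially encoded genes rose, with a median of 1.21, and their summed level went from 22437 and 24079 CPM in the controls to 41702 and 64693 CPM in the libraries labelled CKO. mt-Co1, a core subunit of complex IV, stood at 7983 and 8284 CPM against 16223 and 25619 CPM (1.36 ± 0.27, adjusted p = 0.0109), mt-Nd1 at 2822 and 3098 CPM against 5124 and 7775 CPM (1.12 ± 0.24, adjusted p = 0.0128) and mt-Cytb at 4527 and 4922 CPM against 7459.98 and 10852 CPM (0.95 ± 0.23, adjusted p = 0.0197). In each of them CKO 2 lay above CKO 1 and both lay above the controls. None of the 13 was called without control 1 or without control 2, where adjusted p of mt-Co1 was 0.151 and 0.157, of mt-Nd1 0.148 and 0.133, and of mt-Cytb 0.213 and 0.190. Nuclear genes of oxidative phosphorylation rose in 17 of 18 cases with a median of 0.91. Atp5a1, the alpha subunit of ATP synthase, stood at 556 and 543 CPM against 950.3 and 1364 CPM (1.07 ± 0.19, adjusted p = 0.00729), Cox5a at 47.9 and 46.3 CPM against 105 and 153 CPM (1.46 ± 0.18, adjusted p = 0.00268), Atp5o at 50.5 and 58.5 CPM against 104 and 129.8 CPM (1.10 ± 0.14, adjusted p = 0.00281) and Sdha at 334 and 333 CPM against 499 and 665 CPM (0.80 ± 0.16, adjusted p = 0.0101). Of this list, 7 were called without control 1 and 5 without control 2. When control 1 or control 2 was left out, the calls of Atp5a1 (adjusted p = 0.0717 and 0.0887) and Sdha (0.0925 and 0.106) were lost. The same order, CKO 2 above CKO 1 above the controls, was seen in the summed muscle genes (8967 CPM in CKO 1, 16301 CPM in CKO 2, 1163 to 1297 CPM in the controls). Skeletal muscle is rich in mitochondria, and its part in these rises was not tested.

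Glycolysis genes fell in 8 and rose in 2 of 19 cases, with a median of -0.45 that turned to 0.23 under the inner neuron scaling. Pgam1 and Pfkl, a mutase and a phosphofructokinase of the pathway, were 2.12-fold lower (326 and 328 CPM against 148 and 161 CPM, adjusted p = 0.00120) and 1.98-fold lower (324 and 351 CPM against 177 and 165 CPM, adjusted p = 0.00167). The muscle isoform Pfkm went the other way, from 199 and 181 CPM to 698 and 1057 CPM (2.21 ± 0.21, adjusted p = 0.00140), beside the muscle genes given above. Ldhb was 1.96-fold higher (adjusted p = 0.00153), while Ldha, of the other lactate dehydrogenase subunit, did not pass (-0.22 ± 0.15, adjusted p = 0.258). Hk2, the hexokinase of photoreceptors, stood at 297 and 351 CPM against 155 and 258 CPM (-0.65 ± 0.24, adjusted p = 0.0718), and Pkm at 2159 and 2162 CPM against 1454 and 1671 CPM (-0.47 ± 0.14, adjusted p = 0.0395; 0.23 under the inner neuron scaling). The glucose transporter Slc2a1 had overlapping groups (285 and 303 CPM against 358 and 278 CPM). The symbol Aldoa names 2 gene identifiers with opposite changes, ENSMUSG00000030695 at 0.56 ± 0.19 (adjusted p = 0.0612) and the much less counted ENSMUSG00000114515 at -1.24 ± 0.14 (adjusted p = 0.00202), and reads may be divided between them. Not called without control 1 or control 2 was Pkm (adjusted p = 0.302 and 0.321). Calls appeared for Ldha without CKO 2 (adjusted p = 0.00246), Hk2 without CKO 1 (adjusted p = 0.0327) and without CKO 2 (adjusted p = 1.26e-05) and Slc2a1 without CKO 2 (adjusted p = 0.0139). Of the list, 5 genes were called lower without control 1, 5 without control 2 and 13 without CKO 2. In cholesterol synthesis 1 of 13 genes was called, and it was lower. That count was 0 without control 1 or without control 2, 4 higher and 1 lower without CKO 1, and 5 lower without CKO 2.

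Genes of tissues around the retina separated the groups too. All 7 tested muscle genes rose, with a median of 3.38, and Tnnc2, the other member, had at most 4 counts in a library. Acta1, skeletal actin, stood at 205 and 177 CPM in the controls and 1341 and 2640.5 CPM in the libraries labelled CKO (3.38 ± 0.34, adjusted p = 0.00155). The creatine kinase Ckm was 11.1-fold higher (adjusted p = 0.00130), the fast myosin Myh1 10.9-fold higher (adjusted p = 0.000701) and myoglobin, Mb, 8.22-fold higher (adjusted p = 0.000928). Muscle genes were called in 7 of 7 cases with any 1 library left out. Connective tissue genes rose in 8 of 8 cases, among them the collagen genes Col3a1 (84.5 and 72.01 CPM against 204 and 319 CPM, 1.74 ± 0.22, adjusted p = 0.00279) and Col1a1 (0.92 ± 0.15, adjusted p = 0.00568), and 2 were called without control 1 and 2 without control 2. Vascular and pericyte genes rose in 12 of 13 cases with a median of 1.27. The endothelial genes Cdh5 and Pecam1 stood at 12.8 and 13.00 CPM against 35.01 and 64.1 CPM (1.94 ± 0.29, adjusted p = 0.00445), and 13.5 and 15.4 CPM against 30.2 and 54.1 CPM (1.55 ± 0.28, adjusted p = 0.00801), with CKO 2 the highest. Plvap, of fenestrated vessels, which the choroid has and the mature retina lacks, was 2.68-fold higher (17.4 and 18.6 CPM against 46.4 and 49.8 CPM, adjusted p = 0.000802). Cldn5, of the tight junctions that form the blood-retina barrier, did not pass, at 13.8 and 11.6 CPM against 10.9 and 22.1 CPM (0.38 ± 0.33, adjusted p = 0.375), and the pericyte gene Pdgfrb was 1.79-fold higher (adjusted p = 0.00402). The call of Col1a1 (adjusted p = 0.0724 and 0.0607) did not hold without control 1 or control 2. With control 1 left out there was no call for Pecam1 (adjusted p = 0.0523). Cldn5 without CKO 1 (adjusted p = 0.00137) passed, unlike with all 4 libraries. Without control 1, 6 vascular genes were called. Vessels run in muscle, fat and choroid as well as in retina, and the part of the muscle genes in these rises was not tested. Haemoglobin genes, a sign of blood, had overlapping groups (Hba-a1 at 149.6 and 340.3 CPM against 316 and 223 CPM). By edgeR on the 4 P30 libraries 0 of 5 erythroid genes had an unadjusted p under 0.05, and the lowest adjusted p was 0.785. DESeq2 called 0 of the 5 as well. Hbb-bs had log2 fold changes of -0.44 without control 1 and 0.76 without control 2, and Hba-a1 of -0.33 and 0.86.

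Genes on the pigment epithelium list rose in 10 of 14 cases with a median of 0.89, and Best1 (adjusted p = 0.297) was among those that did not pass. Pmel and Tyr, of melanin formation, were 2.17-fold higher (258 and 318 CPM against 597 and 653 CPM, adjusted p = 0.00257) and 1.87-fold higher (50.2 and 53.9 CPM against 104 and 90.9 CPM, adjusted p = 0.00209). Rpe65, the isomerase of the visual cycle, had overlapping groups, at 160.4 and 183 CPM against 260.05 and 125 CPM, with CKO 1 above and CKO 2 below both controls, while Rdh5 (0.86 ± 0.19, adjusted p = 0.0156) and Ttr (1.23 ± 0.25, adjusted p = 0.0123) rose. Without control 1 or control 2, Rdh5 (adjusted p = 0.0865 and 0.0873) and Ttr (0.0835 and 0.0886) were no longer called. Of the genes not called with all 4 libraries, Rpe65 without CKO 1 (-0.42, adjusted p = 0.00421) and without CKO 2 (adjusted p = 0.000181) passed. The value of Rdh5 (0.57) moved by over 1.5 times without CKO 1. Of this list, 2 were called higher without control 1 and 6 without control 2. Lens crystallin genes were called lower in 4 of 14 cases, with a median of -0.60 that was 0.05 under the inner neuron scaling. Their summed level was 26394 and 28448 CPM in the controls, 23688 CPM in CKO 1 and 13956 CPM in CKO 2, so this list separated the libraries labelled CKO from each other more than the groups. Cryba4 was 2.34-fold lower (923 and 1043 CPM against 506 and 334 CPM, adjusted p = 0.00691) and Crybb2 1.88-fold lower (6602 and 7253 CPM against 4562 and 2796 CPM, adjusted p = 0.0335), while Cryaa (8074 and 8568 CPM against 6533 and 3949 CPM, adjusted p = 0.0879), Crygs (-0.59 ± 0.27, adjusted p = 0.123) and Cryab (0.38 ± 0.20, adjusted p = 0.171) did not pass. Cryba4 (adjusted p = 0.0612) lost its call without control 2. When control 1 or control 2 was left out, the call of Crybb2 (adjusted p = 0.156 and 0.227) was lost. Calls appeared for Cryaa without CKO 1 (adjusted p = 2.15e-05) and without CKO 2 (adjusted p = 0.0177), Crygs without CKO 1 (adjusted p = 1.81e-05) and Cryab without CKO 2 (adjusted p = 0.000291). Leaving out CKO 2 moved the log2 fold change of Crybb2 (-0.60) by over 1.5 times. Of the 14, 1 was called lower without control 1, 0 without control 2, 12 without CKO 1 and 7 without CKO 2. Cornea and conjunctiva genes were called higher in 1 of 7 cases (Krt14, 0.64 ± 0.19, adjusted p = 0.0370; 0 cases without control 2, 4 without CKO 1 and 5 by DESeq2), and their summed level was 10312 and 9277 CPM in the controls and 11580 and 14558 CPM in the libraries labelled CKO. Not called without control 1, control 2 or CKO 2 was Krt14 (adjusted p = 0.0660, 0.252 and 0.169). Reads of these tissues are part of each library's total.

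By the rule of largest falls among genes with at least 5 CPM in the higher group, 8 of the 12 were genes of rods, cones or bipolar cells, namely Opn1sw, Kcne2, Opn1mw, Pde6h, Sebox, Arr3, Pde6c and Gucy2f. The other 4 were Slc17a4, a transporter gene of the phosphate family (4.12 and 6.34 CPM against 0.365 and 0.733 CPM, -3.21 ± 0.41, adjusted p = 0.00281), Sh2d1a, an adaptor known from lymphocytes (10.2 and 10.3 CPM against 1.82 and 1.01 CPM, -2.87 ± 0.29, adjusted p = 0.00158), Hdc, the enzyme that makes histamine (36.2 and 43.1 CPM against 6.09 and 4.81 CPM, -2.86 ± 0.17, adjusted p = 0.000532), and Ube4bos1 (13.9 and 15.8 CPM against 2.08 and 2.66 CPM, -2.64 ± 0.20, adjusted p = 0.000823). Ube4bos1 lies opposite Ube4b, and without a stated strand setting the reads of an antisense gene and its partner cannot be told apart.

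The 12 largest rises held no photoreceptor gene. Myh13 (ENSMUSG00000060180, chromosome 11, 67321658 to 67371586), a myosin of extraocular muscle, stood at 9.17 and 8.41 CPM in the controls and 717 and 1256 CPM in the libraries labelled CKO (6.81 ± 0.34, adjusted p = 0.000443). Chrnd and Chrne, subunits of the acetylcholine receptor at the muscle endplate, were near the floor in the controls. Chrnd had 2 counts over the controls and 214 over the libraries labelled CKO, a ratio per library size of 86.5 (95% interval 23.6 to 719, counting error only), and Chrne stood at 0.348 and 0.502 CPM against 5.52 and 13.2 CPM (4.45 ± 0.59, adjusted p = 0.00311). Several others are known from fat cells. Adipoq, the adipokine adiponectin, stood at 0.987 and 0.314 CPM against 22.6 and 28.03 CPM (5.25 ± 0.36, adjusted p = 0.000674), the lipid droplet genes Cidec and Plin1 at 0.871 and 0.565 CPM against 23.8 and 24.4 CPM, and 1.39 and 0.377 CPM against 28.9 and 22.4 CPM, and Pck1, which adipocytes use for glyceride synthesis, at 0.406 and 0.439 CPM against 19.7 and 19.1 CPM. Their log2 fold changes were 5.05 ± 0.22, 4.82 ± 0.41 and 5.50 ± 0.21 (adjusted p = 0.000440, 0.00107 and 0.000440). Hp, haptoglobin, and Cfd, which fat also secretes, rose with them (4.49 ± 0.35, adjusted p = 0.000887, and 4.46 ± 0.31, adjusted p = 0.000684). Bpifa2 and Glycam1, known from glands and other secretory tissue, stood at 0.348 and 0.126 CPM against 4.90 and 6.92 CPM, and 0.174 and 0.188 CPM against 4.58 and 5.50 CPM. Serpine3, a serpin expressed in retina, had the widest ratio between the 2 libraries labelled CKO, at 6.91 and 10.99 CPM against 411 and 51.9 CPM (4.70 ± 1.00, adjusted p = 0.0135). The call of Serpine3 (adjusted p = 0.0884 and 0.0792) did not hold without control 1 or control 2. Without CKO 1 the log2 fold change of Serpine3 (2.58) moved by over 1.5 times.

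The 2 libraries labelled CKO were also compared with each other, as a description with no test. Rod genes were close in both, with summed rod levels of 8169 and 7534 CPM, and so were complement genes, with 1375 and 1345 CPM. Muscle and mitochondrially encoded genes were higher in CKO 2, and crystallins were higher in CKO 1. The genes with the largest ratio of CKO 1 over CKO 2 were Serpine3 (7.85, with 0.5 CPM added), the serotonin receptor subunit Htr3a (36.8 and 8.06 CPM, ratio 4.35), Prb1 (70.8 and 17.2 CPM, ratio 4.02), Apol9b (3.89) and the interferon-inducible Slfn4 (3.85). In the other direction they included Opn1sw (7.49), Entpd4b (3.23 and 17.7 CPM, ratio 4.89), Rps3a2 (4.11) and Slc4a11, of corneal endothelium (14.3 and 59.5 CPM, ratio 4.05). Apol9b, Slfn4, Entpd4b and Rps3a2 have close relatives in the genome, and their counts may include or miss reads of those. Of these genes, Serpine3, Prb1 and Opn1sw passed the test between the groups (adjusted p = 0.0135, 0.0247 and 0.0143). The plot of the 2 libraries against each other shows rod genes close to the diagonal and mitochondrial, muscle and crystallin genes away from it. Left without control 1 or control 2, the data gave no call for Opn1sw (adjusted p = 0.0602 and 0.0736). The value of Opn1sw (-5.92) moved by over 1.5 times without CKO 2.

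**Figure D4:**
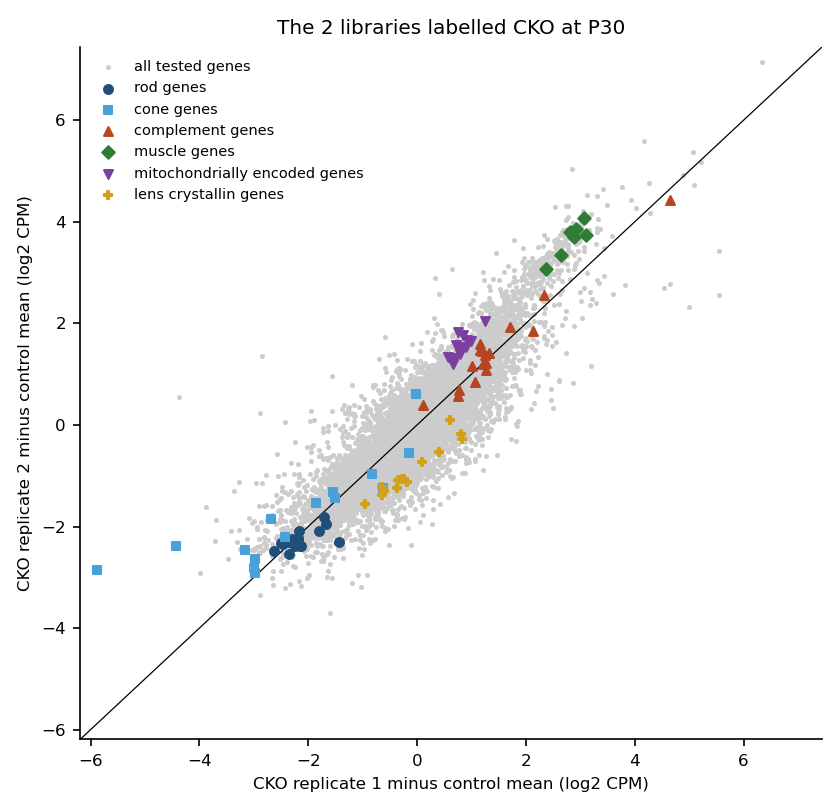
Difference from the control mean in log2 CPM for every tested gene, with the library labelled CKO 1 on the x axis and the library labelled CKO 2 on the y axis, and a diagonal where both are equal. Rod (blue circles) and complement genes (red triangles) lie near the diagonal, muscle (green) and mitochondrially encoded genes (purple) lie above it, lens crystallin genes (yellow) lie below it, and Opn1sw is the cone gene (light blue) furthest to the left.

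The same labels were compared at P14, the age before P30, in a fit of these 8 libraries, and the difference of the differences was tested for each of 20061 genes. The 2 ages share no library. At P14 25.9% of the genes were higher and 28% lower in the libraries labelled CKO. Between the ages, 25.2% (5062) had a higher log2 fold change at P30 than at P14 and 12.9% (2587) a lower one, with a median difference of all genes of 0.13. This split depends on how libraries are scaled and on the P14 libraries labelled CKO. It was 4276 to 3615 with RLE size factors, 3817 to 4501 without mitochondrial and crystallin genes, 427 to 12893 with the scaling on inner neuron genes (median difference -1.30), 5026 to 4474 in the fit of all 16 libraries, and 2920 to 3253 or 3030 to 3273 without P14 CKO 1 or P14 CKO 2. The ages also differed in sex, since both P14 groups were high in Xist (715 to 1128 CPM) and all P30 libraries in Ddx3y, so the ages and the sexes cannot be told apart. This fit takes its spread from both ages, with a biological coefficient of variation of 0.0877 against 0.122 for the 4 P30 libraries alone. It also has 4 residual degrees of freedom against 2. It called 6147 genes higher and 4360 lower at P30, against 4140 and 4049 from the P30 libraries alone. The shared spread is smaller than that of the P30 libraries. SEs and adjusted p of the difference between ages may therefore be too small, and its calls too many. Of the genes called higher in this fit, 2884 were called at both ages, which is 46.9% of those at P30 and 55.5% of those at P14. Of the genes called lower, 2755 were called at both, 63.2% of those at P30 and 49.1% of those at P14.

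Rod genes had medians below 0 at both ages. The median of the rod list was -2.45 at P14 and -2.17 at P30, and 6 of 17 members had a higher difference at P30 and 1 a lower one. Shared photoreceptor genes had medians of -2.30 at P14 and -2.00 at P30 (14 of 27 higher, 1 lower). Those of photoreceptor synapse genes were -2.17 at P14 and -1.59 at P30 (11 of 15 higher, 1 lower). Under the TMM scaling, the median differences of rod, shared and synapse genes were 0.27, 0.40 and 0.50. Those of cone and cilium genes were 0.25 and 0.17. Inner retinal neurons differed more between the ages. Bipolar genes had a median of -2.13 at P14 and -0.62 at P30, with 15 of 20 members higher at P30 than at P14 relative to controls and 1 lower. For ganglion cell genes the medians were -2.69 at P14 and -0.54 at P30 (15 of 16 higher, 1 lower), for amacrine genes -1.72 at P14 and -0.55 at P30 (10 of 18 higher, 3 lower) and for horizontal cell genes -3.47 at P14 and -1.22 at P30 (4 of 6 higher). Their median differences were 1.19, 2.08, 1.17 and 2.39 against 0.13 for all genes. With the scaling on these same neurons they were -0.24, 0.63, -0.30 and 0.97 against -1.30 for all genes. The sign for bipolar and amacrine genes thus turned. A change of scaling shifts all genes by about the same amount, so it cannot test their place relative to the median of all genes. The smaller fall of inner neuron genes at P30 is a difference between libraries and says nothing of the same cells over time. The rod count ranged from 1 without P14 CKO 1 or P14 CKO 2 to 10 without P30 CKO 2 and was 2 or 3 without P14 control 2, P14 control 1 or P30 control 1. The horizontal cell count was 1 or 2 without P14 control 1, P14 control 2, P14 CKO 1, P30 control 1 or P30 control 2.

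Several glial and immune lists had higher medians at P30 than at P14 under the TMM scaling. Complement genes had a median of 0.25 at P14 and 1.40 at P30, with 13 of 17 higher. Microglia and macrophage genes had one of about 0 at P14 and 0.96 at P30 (12 of 18 higher, 1 lower) and Muller glia genes one of -0.70 at P14 and 0.31 at P30 (10 of 14 higher). Gliosis genes had a median of 0.42 at P14 and 1.07 at P30, with 9 of 18 called higher and 5 lower at P14. Their difference between the ages was called higher in 7 and lower in 2 of 18 cases (11 higher without P30 CKO 2). Interferon and antigen presentation genes had few called differences, with medians of 0.62 at P14 and 0.80 at P30 and of 0.81 at P14 and 0.94 at P30, and 2 of 19 and 1 of 14 members had a called difference. These 2 counts were 7 and 2 without P30 CKO 2, the second was 7 without P30 control 1, and the first was 1 without P14 CKO 1 or P14 CKO 2. Muscle genes separated the ages most, at 0.02 at P14 and 3.47 at P30, with 7 of 7 higher, and connective tissue genes were lower at P14 and higher at P30 (-0.53 at P14 and 0.91 at P30, 8 of 8 higher). With the scaling on inner neuron genes the median differences of complement, microglia, Muller glia, gliosis and connective tissue genes turned to -0.41, -0.42, -0.38, -0.80 and -0.07, and that of muscle genes stayed at 1.87. Cholesterol synthesis genes had the opposite order, with 1.02 at P14 and 0.09 at P30 and 8 of 13 differences lower at P30. Tissue from outside the retina that differs between the ages moves with these lists, and its part was not tested. The plot of list medians sets the ages side by side.

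**Figure D5:**
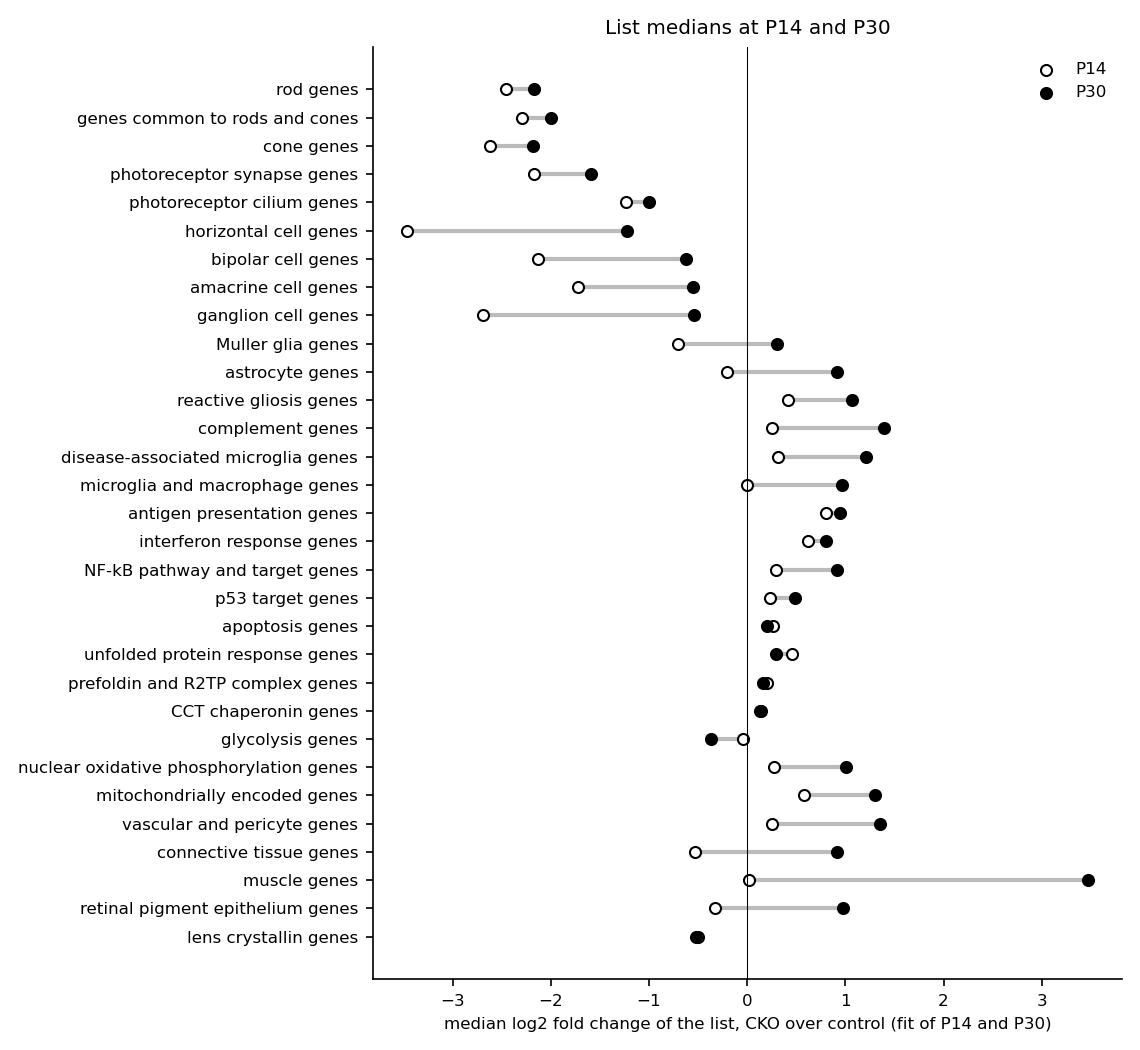
Median log2 fold change, libraries labelled CKO over controls, of 31 gene lists at P14 (open) and P30 (filled) in the fit of the 8 libraries of these ages. Photoreceptor lists lie left of 0 at both ages and somewhat further left at P14. Rod genes lie at -2.45 at P14 and -2.17 at P30, and photoreceptor synapse genes at -2.17 and -1.59. Horizontal, ganglion, bipolar and amacrine lists shift more, lying further left at P14, and muscle genes lie at 0.02 at P14 and 3.47 at P30. With the scaling on inner neuron genes the differences between the ages turn sign for most lists. They stay above 0 for horizontal (0.97), ganglion (0.63) and muscle genes (1.87).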

How the data were processed

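Polyadenylated RNA of whole mouse retina was sequenced from 16 libraries, 2 in each of 8 groups, and 4 of them, at P30, are compared here. The deposited values are whole-number read counts per gene. Reads were handled with HISAT2, HTSeq and mm10, per the submitters' processing notes, while versions, annotation and strand setting are not given in the sources used here. The files hold 54532 gene identifiers, and 54409 had a symbol in GENCODE M21 (GRCm38), which also gave gene positions. Promoters come from RefSeq (GRCm38.p6). The P30 libraries held 15807152 to 22815404 counts.

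Differences were tested with edgeR 4.0.16 (R 4.3.3): TMM scaling, filterByExpr, and a robust quasi-likelihood fit of the 4 P30 libraries alone, which leaves 2 residual degrees of freedom. P-values were adjusted by Benjamini-Hochberg over all 19065 genes tested, with a threshold of 0.05. Each SE is the log2 fold change divided by the square root of F. The P14 comparison used 8 libraries in 1 fit with a term for the difference between ages. The alternatives were RLE factors, library size alone, scaling on inner retinal neuron genes, no mitochondrial and crystallin genes, 2 other filters, all 16 libraries, DESeq2 1.42.0, a replicate block, and each library left out.

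The rule named key and lowest-p members of 40 gene lists, the 12 largest rises and falls of at least 1 on the log2 scale with 5 CPM in the higher group, and 5 genes per direction for the difference between ages. It gave 271 genes at P30, of which the text prints a part, and some results are not reported here. Members and lists were chosen with earlier results of these data known. Intervals and floors (95%, 3 counts) cover counting error only.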

Additional observations from a re-analysis of the deposited data

Results flagged for a closer look

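The difference between libraries labelled CKO and controls was itself compared between P14 and P30 with edgeR's quasi-likelihood test of the difference of differences. It was higher at P30 for 5062 genes and lower at P30 for 2587 genes at an adjusted p under 0.05. The ages cannot be told apart from the sexes of the libraries, and the split depends on the scaling as given above. The following 9 genes are among those that met the naming rule for this test, and no explanation of their values was tested.

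Hdc, the histamine-making enzyme, stood at 1.05 and 0.868 CPM in controls and 2.74 and 3.62 CPM in libraries labelled CKO at P14, and at 33.4 and 39.4 CPM against 5.90 and 4.74 CPM at P30. Its log2 fold change was 1.72 ± 0.26 at P14 and -2.78 ± 0.17 at P30, a difference of -4.50 ± 0.31 (adjusted p = 1.17e-05). Nipal1, a gene of a magnesium transporter family, had 2.13 ± 0.15 at P14 and -1.71 ± 0.18 at P30, a difference of -3.85 (adjusted p = 6.67e-06). For both genes the groups did not overlap at either age. Capn11, a calpain known from testis, differed by -5.32 ± 1.63 (adjusted p = 0.0348), and at P30 the controls themselves stood at 0.589 and 9.93 CPM. Mup4, a major urinary protein gene with many near copies, differed by -4.68 (adjusted p = 0.0454), and the acyltransferase gene Dgat2l6 by -3.66 (adjusted p = 0.0163). At P30 both stood at 0.115 CPM or less in all 4 libraries, so these fitted differences depend on the prior count and are no estimate of size.

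Myh13, the extraocular myosin, had 1.83 ± 0.23 at P14 and 6.90 ± 0.30 at P30, a difference of 5.07 (adjusted p = 4.76e-05), with both libraries labelled CKO above the controls at both ages. Ampd1, the AMP deaminase of skeletal muscle, differed by 4.50 (adjusted p = 0.00239) and rose at P30 from 2.41 and 2.07 CPM to 21.2 and 57.5 CPM. Mettl11b, a methyltransferase gene, differed by 4.23 (adjusted p = 0.000940). Avp, vasopressin, differed by 7.94 ± 1.54 (adjusted p = 0.00502). It was at 0 and 0.115 CPM in the P30 controls and at 4.79 and 0.676 CPM in the libraries labelled CKO, so the size of this difference depends on the prior count and on CKO 1.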

How the results depend on the processing

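At P30, 4140 genes were higher and 4049 lower. Scaling on inner retinal neuron genes gave 10791 and 868, since it moves the median of all genes to 0.68. RLE factors, library size alone, no mitochondrial and crystallin genes, both other filters, 16 libraries and DESeq2 stayed within 1.5 times of both counts. With single libraries left out, higher genes numbered 1267 to 5327 and lower genes 1147 to 4947. The low ends are without a control, where the lone control is assumed to vary like the libraries labelled CKO. Lists in which most members were called in 1 direction numbered 21 of 40, and 9 (without either control) to 28 with a library left out. Of 199 called named genes, 116 (without control 2) to 192 were still called in the same direction.

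Genes whose difference changed between P14 and P30 numbered 13320 with the inner neuron scaling, 427 higher and 12893 lower. Lower differences numbered 4501 without mitochondrial and crystallin genes and 4474 in the 16-library fit, and the cause was not tested. With single libraries left out, higher differences ranged from 2920 to 5973 and lower ones from 1739 to 3590.

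Uxt, at 0.52 and not called, passed with the inner neuron scaling (1.21, adjusted p = 0.000212) and with 16 libraries (0.52, adjusted p = 0.0247), and stood between 0.47 and 0.59 with a library left out. Under the inner neuron scaling, which shifts all genes upwards, the sign turned for the bipolar genes Vsx1 (0.61), Cabp5 (0.19), Trpm1 (0.56) and Grik1 (0.20), for Tfap2b (0.038), Slc6a9 (0.54), Sncg (0.61), Glul (0.21), Abca8a (0.29) and Cd44 (0.59), for Mdm2 (0.62), Trib3 (0.032), Ddit3 (0.65) and Atf4 (0.58), for Vbp1 (0.16), Uri1 (0.50), Rpap3 (0.48), Cct5 (0.55) and Hspa1a (0.66), for Pkm (0.23), Hmgcs1 (0.56), Sqle (0.60) and Clock (0.077), and for the amacrine median (0.041). The genes listed are named genes called with or without this scaling, and signs of uncalled genes can turn too. The medians of ganglion (0.04), glycolysis (0.23) and lens genes turned as well. With a library left out, Slc6a9 ranged from -0.52 to 0.22 and Rpe65 from -0.42 to 0.60.

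Control and CKO libraries of the same number had deviations that correlated at -0.02 across genes at P30. This gave no sign of a pairing by replicate number, but a single correlation cannot exclude one. A replicate block gave 4014 higher and 3885 lower genes at P30, and 4953 and 2462 for the difference between ages. Below 0.137 to 0.188 CPM a gene cannot be told from 0 counts in a library, and genes with few counts have wide errors.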

Other observations

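Genes of the circadian clock changed in 5 of 12 cases at P30, 2 higher (16.7%) and 3 lower (25%), against 21.7% and 21.2% of all genes. Arntl, the activator BMAL1, stood at 71.5 and 66.2 CPM in the controls and 25.4 and 37.9 CPM in the libraries labelled CKO (-1.12 ± 0.19, adjusted p = 0.00635). Its partner Clock fell from 129 and 134 CPM to 71.7 and 97.1 CPM (-0.64 ± 0.15, adjusted p = 0.0193), but turned to 0.08 under the scaling on inner neuron genes. The repressor Cry1 fell as well (-0.79 ± 0.14, adjusted p = 0.00721). Dbp, an output gene of the clock, rose from 66.0 and 74.4 CPM to 188 and 95.2 CPM (1.01 ± 0.30, adjusted p = 0.0388), with CKO 1 well above CKO 2, and Nr1d1, a repressor of Arntl, rose by 0.35 ± 0.09 (adjusted p = 0.0299). Per1 had overlapping groups, at 122 and 125 CPM against 142 and 106 CPM. Arntl was called with any 1 library left out, while Cry1 (adjusted p = 0.0526 and 0.0552), Clock (0.101 and 0.133), Dbp (0.148 and 0.123) and Nr1d1 (0.189 and 0.249) were not called without control 1 or control 2. Leaving out CKO 1 gave 0.47 for Dbp and -0.40 for Clock. Over the 12 genes, 0 were called higher and 1 lower without control 1 or without control 2. Without CKO 1 7 were called lower (median -0.34), and without CKO 2 4 were called higher (median 0.15).

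Of 11 tested genes of retinal progenitors and neurogenesis 5 rose and 2 fell, with a median of 0.04. Hes5, a Notch target that Muller glia keep, was scarce, at 3.37 and 2.95 CPM against 1.04 and 0.687 CPM (-1.87 ± 0.31, adjusted p = 0.00623). The eye field gene Rax fell from 47.6 and 46.9 CPM to 29.4 and 19.7 CPM (-0.95 ± 0.19, adjusted p = 0.0113). Notch1 (0.44 ± 0.08, adjusted p = 0.00972) and Ccnd1 (0.49 ± 0.15, adjusted p = 0.0420) rose. Hes5 was called with any 1 library left out. Without control 1 or control 2 the calls of Rax (adjusted p = 0.0568 and 0.0642), Notch1 (0.107 and 0.111) and Ccnd1 (0.204 and 0.141) were lost. Ccnd1 stood at 0.30 without CKO 1. Over the 11 genes, 1 was called higher and 1 lower without control 1 or without control 2, and the median was 0.24 without CKO 2.

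Of 14 proliferation genes 2 rose and 1 fell. The cycling-cell marker Mki67 and the topoisomerase Top2a had overlapping groups, with Mki67 at 29.3 and 17.6 CPM against 14.4 and 29.0 CPM. The fall was of Ccna2 (31.98 and 32.96 CPM against 13.3 and 18.1 CPM, -1.04 ± 0.16, adjusted p = 0.00529; 0.0509 without control 2). The licensing factors Mcm5 (0.55 ± 0.13, adjusted p = 0.0208) and Mcm2 (0.39 ± 0.12, adjusted p = 0.0430) rose, and neither was called without control 1 (adjusted p = 0.105 and 0.258) or control 2 (0.167 and 0.155). Mcm2 also was not called without CKO 2 (0.0511). Without CKO 1 4 of the 14 were called higher, and without CKO 2 2 were called lower.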
